A study of Mus musculus with 9 samples.

Results

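The 3 tumour libraries of hairpin 2 were compared with the 3 libraries labelled hairpin 1, taken by sample title, 6 of the 9 libraries in the study and with all 14193 tested genes. Both hairpins are short hairpin RNAs against Fbxo38, so the comparison asks how far tumours made with 1 hairpin differ from tumours made with the other. Bulk RNA was sequenced from tumours that grew under the skin of C57BL/6 mice for 16 days from injected B16-F10 cells, a mouse melanoma line. The cells carried a control hairpin (3 libraries, in the fit for the spread between replicates), hairpin 1 (3 libraries) or hairpin 2 (3 libraries). No other allele or agent is named, and the hairpins were put into the melanoma cells before injection, so the host's own blood, vessel and connective tissue cells carry none. The labels do not say whether a hairpin line was 1 clone or whether replicates came from separate animals, and p-values here measure no more than the spread between the samples. The mouse ages are not in the labels used here.

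Fbxo38 encodes an F-box protein, the subunit by which an SCF ubiquitin ligase (a complex built on a cullin scaffold) binds the protein it marks for degradation. It is known as a coactivator of the transcription factor KLF7 and, in T cells, as a ligase for the checkpoint receptor PD-1. RNA interference cuts or silences a transcript through a short guide matched to it, so a pair of hairpins against 1 gene shares the intended target while each has its own unintended ones.

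Library totals ran from 15322163 to 17342554 counts. A principal component analysis set a pair of libraries apart on its first axis, which held 35.8% of the variance. Replicate 1 labelled hairpin 1 scored 60.6 there, replicate 2 of hairpin 2 scored -54.8, and the 7 remaining libraries scored from -21.5 to 30.7. Transcripts of the mitochondrial genome made up 2.12% to 6.29% of a library. Globin genes supplied 2.04% of replicate 2 of hairpin 2 and no more than 0.481% of any other library. All 18 melanocyte lineage genes were tested in these tumours, and 7 of the 10 keratinocyte markers, Krt5 and Krt14 among them, were at 0 in all 6 hairpin libraries. These libraries at the ends of the axis (replicate 1 labelled hairpin 1, replicate 2 with hairpin 2) are called the end pair where a value is given without them.

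Fbxo38 was lower in the hairpin 2 libraries than in the libraries labelled hairpin 1, but the gap was not past the threshold. The gene (ENSMUSG00000042211.7, protein-coding, minus strand, GRCm38 chr18:62504155-62548695) stood at 35.1, 20.99 and 22.03 CPM (counts relative to the library total as scaled by TMM, the trimmed mean of M values) in the libraries labelled hairpin 1 and at 20.96, 11.4 and 11.9 CPM with hairpin 2. The groups were separated only by the gap between 20.96 and 20.99 CPM, and in each group 1 library stood well above the others. The means were 26.0 ± 7.87 and 14.7 ± 5.39 CPM (SD, n = 3 each), a fitted ratio of 0.566. On the log2 scale, where 1 is a 2-fold difference, the fitted fold change was -0.82 (SE 0.29, with a 95% interval of -1.46 to -0.18, edgeR unadjusted p = 0.0172, adjusted p = 0.376), and an exact permutation test (two-sided) gave p = 0.1, the lowest that 3 against 3 libraries can reach. It was -0.54 without replicate 1 labelled hairpin 1 and -0.39 without the end pair. The control libraries stood at 21.7, 31.3 and 30.8 CPM, a range that overlaps that of the libraries labelled hairpin 1. Replicate 1 of hairpin 2, at 20.96 CPM, also stood close to the lowest control library at 21.7 CPM. Fbxo38 RNA was thus not seen to be lower than control in the libraries labelled hairpin 1. These bulk values cannot settle whether that label is right, and those libraries are called by their label throughout.

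The list of the ligase's subunits and reported partners had no common direction. Of 13 tested, Fbxo38 included, 6 had positive log2 fold changes (50.2% of all genes) and 7 negative ones (49.8% of all genes), and the median was -0.01 against 0.00 for all genes. The SCF adaptor gene Skp1a stood at 188.5, 204 and 213 CPM in the libraries labelled hairpin 1 and at 204, 220 and 199 CPM with hairpin 2. Klf7, which encodes the transcription factor that Fbxo38 is known to coactivate, stood at 8.76, 8.27 and 8.84 CPM against 11.7, 17.5 and 10.7 CPM, with all hairpin 2 values above (log2 fold change 0.62, SE 0.24, edgeR unadjusted p = 0.0283). Its value was 0.31 (edgeR unadjusted p = 0.236) once the drift of each library with transcript length and GC was taken out, and 0.38 without the end pair. In the genotype field the number after FBXO climbs by 1 from sample to sample, from FBXO38 to FBXO43 over the 6 hairpin libraries. Fbxo42 stood at 135, 172 and 181 CPM against 164, 192 and 174 CPM (log2 fold change 0.12, SE 0.15), and the groups overlapped. Fbxo41 stood at 0.474, 1.21 and 0.379 CPM against 1.51, 1.49 and 0.975 CPM (0.95, SE 0.55), with overlap. Fbxo39, Fbxo40 and Fbxo43 were under the minimum count for testing.

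No gene passed the threshold between the hairpins in edgeR's quasi-likelihood test, 0 of 14193 (0%) at an adjusted p under 0.05, and the lowest adjusted p was 0.375. An unadjusted p under 0.05 was reached by 1655 genes (11.7%), of which 912 were higher with hairpin 2 (6.43% of all tested) and 743 lower (5.23%). Limma-voom called 0, and DESeq2 called 89 (0.627%), 38 higher and 51 lower. All 3 hairpin 2 values lay above all 3 values labelled hairpin 1 in 1180 genes (8.31%), and below them in 1089 (7.67%). These shares are the background for the counts below that use all 6 hairpin libraries as counted. The count of 1655 was 738 without replicate 2 of hairpin 2, 974 without replicate 1 labelled hairpin 1, 2432 without replicate 3 of hairpin 2, and 537 without the end pair. The higher share of the 1655 was 55.1%, and 41% of 1746 with upper-quartile scaling, which moved the median of all genes to -0.04.

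The 12 genes of smallest p on the higher side had transcripts of 5432 to 26901 bases. None passed the threshold, and each had an edgeR adjusted p of 0.375. Vps13c (GRCm38 chr9:67840396-67995638, plus strand), a protein that moves lipid between membranes, stood at 52.8, 58.7 and 67.2 CPM in the libraries labelled hairpin 1 and at 92.9, 92.5 and 92.8 CPM with hairpin 2. The hairpin 2 libraries were nearly equal and all lay above the others, including the control libraries at 67.6, 59.3 and 60.3 CPM. The means were 59.6 ± 7.25 and 92.7 ± 0.196 CPM (SD, n = 3 each), and the log2 fold change was 0.64 (SE 0.11, with a 95% interval of 0.39 to 0.89, edgeR unadjusted p = 0.000173), or 1.56-fold.

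Myo5a (chr9:75071015-75223688, plus strand), the myosin motor that holds melanosomes at the cell edge, stood at 329, 446 and 457 CPM against 642, 783 and 612 CPM with hairpin 2. Its log2 fold change was 0.73 (SE 0.14, edgeR unadjusted p = 0.000474), and the groups did not overlap. Rab27a, the small GTPase that links melanosomes to that motor, stood at 226, 267 and 255 CPM against 309, 350 and 314 CPM, again without overlap (log2 fold change 0.38, SE 0.11, edgeR unadjusted p = 0.00744). It was the only 1 of 18 melanocyte lineage genes at an unadjusted p under 0.05 in either direction (background 6.43% higher, 5.23% lower). It was also the only 1 of the 18 without overlap (background 8.31% above, 7.67% below). Neither count stands above the background, and the exons of Rab27a overlap another annotated gene. For the pigment enzyme genes the values were -0.04 (SE 0.15, Tyrp1) and -0.06 (SE 0.10, Dct), with a list median of -0.02.

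Med13, a subunit of the Mediator kinase module, stood at 69.2, 72.2 and 77.4 CPM against 106, 117 and 92.5 CPM (log2 fold change 0.53, SE 0.11, edgeR unadjusted p = 0.000627). Washc4, a subunit of the WASH complex that branches actin on endosomes, stood at 40.97, 37.5 and 45.6 CPM against 61.6, 58.1 and 62.6 CPM (0.55, SE 0.12). Tgfbr1, the type I receptor for TGF beta, stood at 38.5, 43.2 and 42.1 CPM against 61.3, 63.1 and 53.3 CPM (0.52, SE 0.11). In all 3 genes the hairpin 2 libraries lay above the libraries labelled hairpin 1 without overlap. The other genes of the 12 were Alms1 and Togaram1 of the centrosome and cilium, Dmxl2 of the proton pump's assembly factors, the histone demethylase gene Kdm5a, Etl4, the p53-induced gene Trp53inp1 and the zinc finger repressor gene Zbtb20. Their log2 fold changes ran from 0.45 (Kdm5a) to 0.82 (Etl4).

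The 12 genes of smallest p on the lower side had transcripts of 649 to 4335 bases, again with an edgeR adjusted p of 0.375 each. Timm50 (chr7:28305516-28312072, minus strand), the receptor that passes proteins to the inner membrane import channel of mitochondria, stood at 127, 118 and 114 CPM in the libraries labelled hairpin 1 and at 92.0, 80.1 and 87.97 CPM with hairpin 2. The groups did not overlap, and the log2 fold change was -0.47 (SE 0.09, edgeR unadjusted p = 0.000506). Gadd45gip1, a protein of the mitochondrial ribosome, stood at 49.4, 47.6 and 42.9 CPM against 32.6, 28.0 and 31.8 CPM (-0.60, SE 0.13). Slc25a34, a carrier of the mitochondrial family, stood at 38.8, 34.2 and 35.4 CPM against 24.5, 21.2 and 23.2 CPM (-0.65, SE 0.14). These 3 mitochondrial genes were lower in every hairpin 2 library than in any library labelled hairpin 1.

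Slc16a3 (chr11:120948480-120960868, plus strand), the lactate exporter of glycolytic cells, stood at 512, 514 and 453 CPM against 372, 335 and 334 CPM (log2 fold change -0.51, SE 0.11, edgeR unadjusted p = 0.00104). The control libraries, at 394, 411 and 323 CPM, lay below all 3 libraries labelled hairpin 1 and overlapped those of hairpin 2. Serpinb1a, an inhibitor of neutrophil proteases, had the largest fold of the 12, at 2.13, 2.35 and 2.08 CPM against 0.439, 0.775 and 0.548 CPM (-1.88, SE 0.39), where 3 counts equal 0.178 to 0.202 CPM. Ifitm2, an interferon-induced membrane protein, had means of 155 ± 15.1 and 98.8 ± 18.4 CPM (SD, n = 3 each) without overlap (-0.65, SE 0.14). The others were Ddt, Rcor2 of the CoREST repressor family, the ubiquitin ligase gene Rnf126, Tpgs1 of the tubulin polyglutamylase, Mri1 of methionine salvage and the galactokinase gene Galk1, from -0.45 (Rnf126) to -0.80 (Ddt).

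Against the control libraries, which enter these values only side by side, hairpin 2 stood beyond all 3 controls on the same side in 11 of the 12 genes with higher and 11 of the 12 with lower values. The libraries labelled hairpin 1 overlapped the controls in 12 and 7 of them. The 24 were picked by smallest p from a fit of these same libraries, which favours extreme hairpin 2 values. The share over all tested genes was not counted, so these counts are no separate support for a departure from control. All 24 kept their direction with the length and GC trend of each library removed, with log2 fold changes from 0.05 (Kdm5a) to 0.54 (Etl4) and from -0.16 (Rnf126) to -1.79 (Serpinb1a). The values became smaller for all 24, and 5 of them no longer had an unadjusted p under 0.05. These were Kdm5a (edgeR unadjusted p = 0.589), Zbtb20 (0.08, unadjusted p = 0.442), Med13 (0.12, unadjusted p = 0.189), Rnf126 (unadjusted p = 0.107) and Togaram1 (0.26, unadjusted p = 0.0594). Vps13c then stood at 0.26, Myo5a at 0.34, Washc4 at 0.30, Tgfbr1 at 0.28 and Timm50 at -0.21. Without the end pair the 24 values ran from 0.32 (Kdm5a) to 0.73 (Trp53inp1) and from -0.37 (Timm50) to -2.15 (Serpinb1a). Their directions were kept, but the groups did not overlap in any of the 24, so leaving out libraries could hardly turn them. DESeq2 called 20 of these 24 genes, 11 higher and 9 lower, and no other gene that the naming rule gives. Since the 24 were picked by smallest p on the same counts, this overlap is no separate support.

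**Figure D1:**
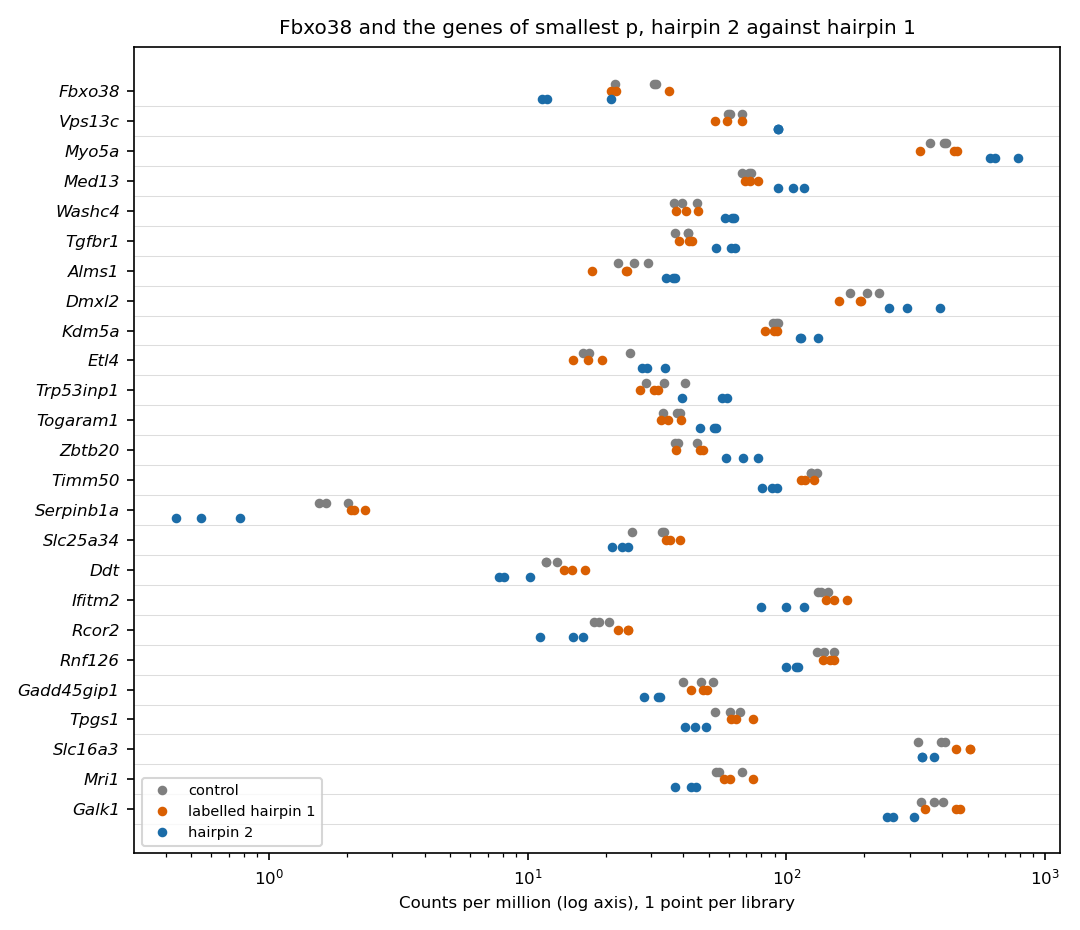
CPM on a log axis for Fbxo38 and the 24 genes of smallest p, 1 point per library, for control (grey), the libraries labelled hairpin 1 (orange) and hairpin 2 (blue). Blue points lie right of all orange points from Vps13c to Zbtb20 and left of them from Timm50 to Galk1, while for Fbxo38 the groups nearly touch at 20.96 and 20.99 CPM.

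Transcript length ran through the whole comparison. The median length was 6261 bases for the genes higher with hairpin 2 at an unadjusted p under 0.05, 1923 bases for those lower, and 3205 bases for all tested genes, taken as the longest transcript per symbol. Among the 24 named genes the medians were 10580 and 1779 bases. Across 14109 genes of these same libraries (genes are no independent replicates), the log2 fold change had a Spearman's rho of 0.42 with length and -0.29 with GC content.

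Genes were divided by length into 10 bins of equal number. In the bin of longest genes the median log2 fold change was 0.29, and 85.8% of the genes had a positive value. There, hairpin 2 lay above without overlap in 27.1% of genes and below in 1.28%. In bin 2 from the short end the median was -0.19, with 1.77% above and 17.8% below. The gradient was not equal among libraries. A library's deviation from the gene means ran with length at a rho of 0.33, 0.32 and 0.11 for hairpin 2 and of -0.31, -0.09 and 0.02 for the libraries labelled hairpin 1, so the extremes were replicates 1 and 2 of hairpin 2 on the long side and replicate 1 labelled hairpin 1 on the short side. Leaving out the end pair, rho of the log2 fold change with length was 0.27. With the trend in length and GC content removed from each library, 879 genes had an unadjusted p under 0.05 and 40.7% of them were higher, where 55.1% had been. What produced the gradient was not tested.

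**Figure D2:**
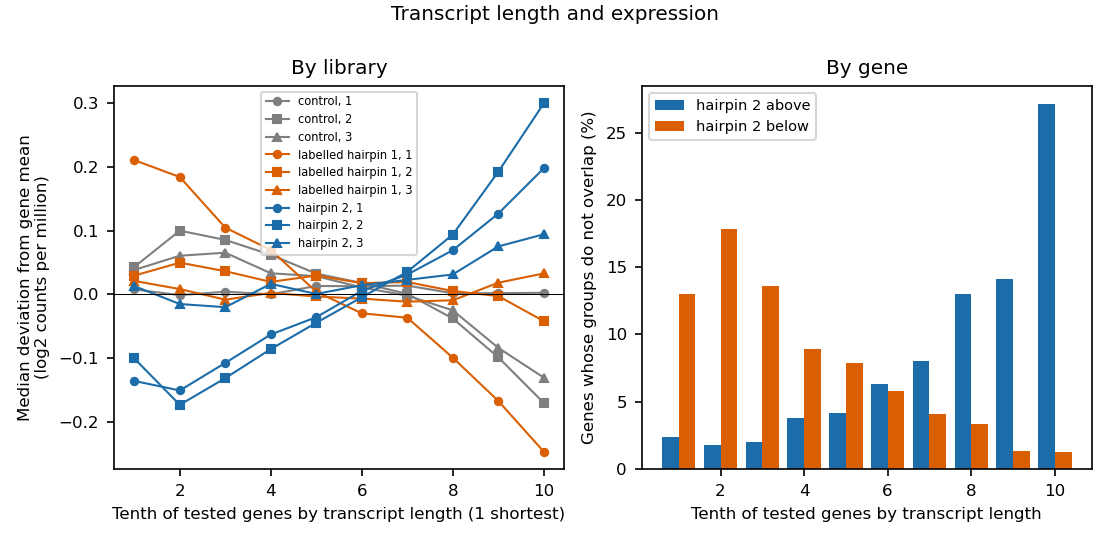
Left, median deviation of each library's log2 CPM from the gene mean in 10 bins of genes by transcript length (1 the shortest), 1 line per library. Right, percentage of genes in each bin whose 3 hairpin 2 values lie all above (blue) or all below (orange) the 3 values labelled hairpin 1, which runs from 2.41% and 13% in the shortest bin to 27.1% and 1.28% in the longest.

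Very long genes of vesicle transport, cytoskeletal linkage and ubiquitin transfer leaned to higher values with hairpin 2. The 20 tested genes encode giant proteins such as the VPS13 lipid movers, the BEACH domain proteins and the HECT-type ligases. All 20 had positive log2 fold changes (median 0.46 against 0.00 for all genes), 17 had an unadjusted p under 0.05 (background 6.43%) and in 15 the groups did not overlap (background 8.31%). In the bin of longest genes as a whole, 85.8% had a positive value and 27.1% lay above without overlap. Birc6, an inhibitor of apoptosis with ubiquitin-conjugating activity, stood at 98.3, 113 and 144 CPM against 187, 191 and 163 CPM (log2 fold change 0.61, SE 0.15). Lyst, the lysosomal trafficking regulator whose loss dilutes coat colour in mice, stood at 63.5, 101 and 90.5 CPM against 125, 149 and 118 CPM (0.62, SE 0.18). Every hairpin 2 library lay above every library labelled hairpin 1 for both genes.

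Dync1h1, the heavy chain of the motor dynein, stood at 705, 846 and 842 CPM against 957, 972 and 1122 CPM (0.35, SE 0.12). Ubr4, a ligase of the N-degron pathway, had 0.35 (SE 0.11) and Huwe1, a ligase for p53 and MYC among others, 0.46 (SE 0.19), both without overlap. Dst, a linker of filaments, had 0.39 (SE 0.26), and its groups overlapped. The median transcript length of the list was 14461 bases. With the length and GC trend removed, 12 of the 20 were positive, the median was 0.03, and Vps13c alone had an unadjusted p under 0.05 (background 2.52%), with a log2 fold change of 0.26. Birc6 was then at 0.17, Lyst at 0.21, Dync1h1 at 0.02, Huwe1 at 0.05 and Ubr4 at 0.00. All 20 were also positive without the end pair, with a median of 0.31, 6 at an unadjusted p under 0.05 (background 1.86%), and 16 not overlapping (background 16.2%). For the 15 without overlap in all 6 libraries, leaving out libraries could hardly turn the sign.

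Chromatin remodellers, histone modifiers and Mediator subunits gave a like pattern. Positive values were found for 23 of 24 tested (median 0.39). An unadjusted p under 0.05 was reached by 16 (background 6.43%), and in 16 the hairpin 2 values lay above without overlap (background 8.31%). In the bin of longest genes as a whole, 27.1% lay above. Chd9, a chromodomain helicase, stood at 30.1, 47.2 and 55.4 CPM against 70.1, 67.3 and 70.7 CPM (log2 fold change 0.65, SE 0.19). Ep300, a histone acetyltransferase, stood at 66.2, 91.1 and 97.2 CPM against 114, 146 and 118 CPM (0.57, SE 0.19). Kmt2c, a methyltransferase of enhancers, stood at 21.6, 36.5 and 35.0 CPM against 45.6, 61.1 and 41.1 CPM (0.67, SE 0.21). In each of these genes replicate 1 labelled hairpin 1 was the lowest library of the 6, and the groups did not overlap.

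Among other members, Chd4, the helicase of the NuRD complex, had 0.25 (SE 0.10), Ncor1, a corepressor of nuclear receptors, 0.42 (SE 0.17), Arid1a of the BAF complex 0.39 (SE 0.23) and Chd3 0.06 (SE 0.11). Of these 4 only Chd4 separated the groups. The median transcript length of the list was 9191 bases. With the trend removed, 19 of 24 were positive and the median was 0.13. An unadjusted p under 0.05 was then reached by 3 (background 2.52%), Chd6 (0.30), Ep300 (0.28) and Med13l (0.29). Chd9 was then at 0.28 (edgeR unadjusted p = 0.0878) and Kmt2c at 0.24 (unadjusted p = 0.121). The median was 0.23 without the end pair, with 23 of 24 positive. For the 16 without overlap in all 6 libraries, leaving out libraries could hardly turn the sign.

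Genes of the glycolytic pathway and the hypoxia response leaned the other way. Negative values were found for 22 of 25 tested (median -0.27), and 7 had an unadjusted p under 0.05 (background 5.23%). In 7 the hairpin 2 values lay below without overlap (background 7.67%). Eno1, enolase, stood at 8961, 10300 and 8494 CPM in the libraries labelled hairpin 1 and at 7476, 7324 and 8279 CPM with hairpin 2 (log2 fold change -0.27, SE 0.10). Ldha, the lactate dehydrogenase subunit, stood at 3990, 4270 and 3752 CPM against 3298, 3288 and 3582 CPM (-0.24, SE 0.09). Higd1a, a hypoxia-induced mitochondrial protein, stood at 154, 140 and 117 CPM against 98.4, 109 and 101 CPM (-0.41, SE 0.12). All 3 genes were lower in every hairpin 2 library, as were Slc16a3, Hk1, P4ha1 and the hypoxia marker carbonic anhydrase gene Car9.

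Pkm, pyruvate kinase, overlapped between the groups (-0.15, SE 0.10), as did the glucose transporter gene Slc2a1 (-0.59, SE 0.27). With the length and GC trend removed, 19 of 25 were negative with a median of -0.22, and 3 had an unadjusted p under 0.05 (background 3.67%), Slc16a3 (-0.50), Hk1 (-0.33) and Higd1a (-0.29). The enzymes of the lower pathway were near 0 in that fit, with Eno1 at -0.06 (edgeR unadjusted p = 0.509), Ldha at -0.08 (unadjusted p = 0.333), Pkm at 0.02, Pgk1 at 0.02 and Pgam1 at 0.06. Without the end pair, 21 of 25 were negative with a median of -0.22, and 2 had an unadjusted p under 0.05 (background 1.89%).

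Mitochondrial protein import genes were lower in part. Negative values were found for 14 of 18 tested (median -0.16), 6 had an unadjusted p under 0.05 and 8 lay below without overlap. Beside Timm50 these were the outer membrane pore gene Tomm40 and its receptor Tomm22, the inner membrane channel genes Timm17a and Timm17b, the small chaperones Timm10 and Timm13, and Grpel1. Tomm40 stood at 161, 153 and 160 CPM against 130, 115 and 125 CPM (log2 fold change -0.36, SE 0.09). Timm13 stood at 172, 135 and 140 CPM against 97.1, 103 and 130 CPM (-0.44, SE 0.14). The matrix chaperone genes Hspd1 (0.16, SE 0.11) and Hspa9 (-0.075, SE 0.13) overlapped between the groups. With the trend removed, 13 were negative with a median of -0.10. An unadjusted p under 0.05 was reached by 5 (background 3.67% lower, 2.52% higher), and 7 lay below without overlap (background 5.74%). Tomm40 was then at -0.25 (edgeR unadjusted p = 0.0162) and Timm13 at -0.17 (unadjusted p = 0.116). The median was -0.11 without the end pair.

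Nuclear genes of oxidative phosphorylation and genes of the proteasome also had mostly negative values. Of 23 respiratory chain genes 21 were negative (median -0.19), with 6 at an unadjusted p under 0.05 and 6 below without overlap. Cox5b, a subunit of cytochrome oxidase, stood at 303, 274 and 272 CPM against 213, 192 and 245 CPM (log2 fold change -0.38, SE 0.11). The list's members of highest CPM, Atp5b (-0.11, SE 0.12) and Atp5a1 (-0.06, SE 0.10), overlapped between the groups. Of 24 proteasome genes 23 were negative (median -0.21), with 9 at an unadjusted p under 0.05 and 6 below without overlap. Psmb4, a core particle subunit, stood at 326, 292 and 292 CPM against 231, 208 and 275 CPM (-0.35, SE 0.11). Psmd2, the proteasome member of highest CPM, had -0.13 (SE 0.12), and its groups overlapped. In both lists replicate 3 of hairpin 2 had a higher summed level than the other hairpin 2 libraries, at 8186 CPM against 6989 and 6451 for the respiratory chain.

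Transcripts of both lists are short, with median lengths of 1735 and 1566 bases. After removal of the length and GC trend the medians were -0.05 and -0.12. An unadjusted p under 0.05 was then reached by 1 and 2 genes (background 3.67% lower, 2.52% higher). Cox5b was then at -0.24 (edgeR unadjusted p = 0.0207) and Psmb4 at -0.14 (unadjusted p = 0.118). Without the end pair they were -0.06 and -0.11. Cytosolic ribosomal protein genes, of still shorter length (1107 bases), had 22 of 24 negative values and a median of -0.11, which became 0.06 with the trend removed.

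**Figure D3:**
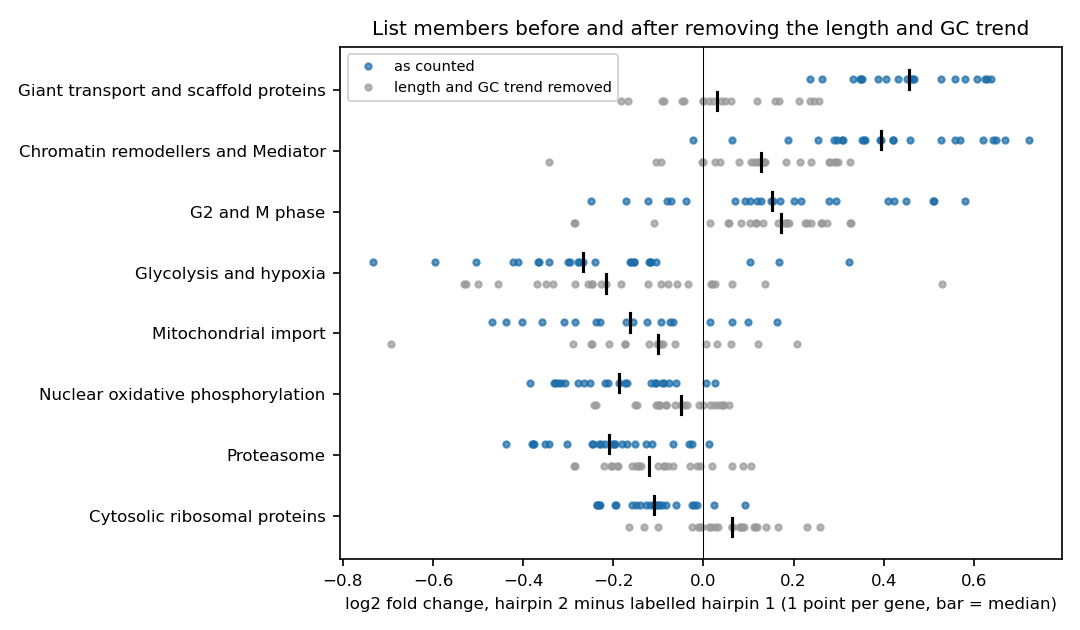
log2 fold change of hairpin 2 over the libraries labelled hairpin 1 for each tested member of 8 lists, as counted (blue) and with each library's length and GC trend removed (grey). Bars mark medians, which move from 0.46 to 0.03 for the giant proteins and from -0.27 to -0.22 for glycolysis and hypoxia.

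Mitotic genes were divided. Positive values were found for 18 of 24 tested G2 and M phase genes (median 0.15), 6 had an unadjusted p under 0.05 on the higher side and 1 on the lower. Top2a, the topoisomerase that untangles replicated chromosomes, stood at 373, 444 and 474 CPM against 649, 589 and 493.2 CPM (log2 fold change 0.42, SE 0.12, edgeR unadjusted p = 0.00608). Kif11, the motor that separates spindle poles, stood at 60.6, 77.5 and 73.8 CPM against 106, 102 and 81.2 CPM (0.45, SE 0.13). Cdca8, a subunit of the chromosomal passenger complex, stood at 74.6, 69.0 and 68.6 CPM against 62.9, 59.5 and 56.05 CPM (-0.25, SE 0.10). Top2a and Kif11 lay above and Cdca8 below without overlap, and Mki67 (0.58, SE 0.26) overlapped between the groups.

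Over the list, 8 genes lay above and 2 below without overlap, and after removal of the length and GC trend the median was 0.17 with 7 above (background 5.39%). Top2a was then at 0.23 (edgeR unadjusted p = 0.033), Kif11 at 0.28 (unadjusted p = 0.0206) and Cdca8 at -0.29 (unadjusted p = 0.0111). Without the end pair the median was 0.10, and 0 genes had an unadjusted p under 0.05 in edgeR (background 1.86% higher, 1.89% lower). DNA replication genes had a median of -0.03, with Mcm2 at 0.16 (SE 0.11) and Rrm1 at 0.13 (SE 0.11). Of 23 tested, 2 lay below without overlap (background 7.67%) and 1 above (background 8.31%). An unadjusted p under 0.05 was reached by 2 on the lower side (background 5.23%) and 0 on the higher (background 6.43%), so these counts are near the background. On the lower side were the chromatin assembly gene Chaf1b, at 92.9, 105 and 82.9 CPM against 79.9, 64.7 and 68.6 CPM (-0.40, SE 0.12), and the cyclin gene Ccne1 (-0.27, SE 0.11). Both lay below without overlap, and with the trend removed Chaf1b was at -0.37 (edgeR unadjusted p = 0.00787) and Ccne1 at -0.10 (unadjusted p = 0.364).

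The 6 lists of lowest median held interferon-stimulated, antigen presentation, cytotoxic and chemokine genes, but no member separated the groups. Type I interferons act through the factor ISGF3, which binds promoter elements with paired GAAA blocks, while interferon gamma induces an overlapping set of genes. MHC class I genes show peptides to CD8 T cells and class II genes to CD4 T cells. The 4 promoters shown belong to the type I members of highest mean CPM over the 6 hairpin libraries among those that hold the element. Each is the 250 bases before the annotated start, read 5′ to 3′ on the gene's strand (RefSeq, GRCm38.p6), with each match of GAAA, any 2 bases and GAAA again, on either strand, in capitals, overlapping matches merged. Bst2 lies at chr8:71537473-71537722 (minus strand), Rsad2 at chr12:26456453-26456702 (minus), Ifit3 at chr19:34583279-34583528 (plus) and Oas1a at chr5:120907526-120907775 (minus).
Bst2: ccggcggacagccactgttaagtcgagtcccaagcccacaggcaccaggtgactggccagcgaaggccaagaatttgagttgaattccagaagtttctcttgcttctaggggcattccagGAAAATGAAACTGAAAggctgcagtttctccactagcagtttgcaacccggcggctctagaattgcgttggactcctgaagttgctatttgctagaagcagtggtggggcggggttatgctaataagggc
Rsad2: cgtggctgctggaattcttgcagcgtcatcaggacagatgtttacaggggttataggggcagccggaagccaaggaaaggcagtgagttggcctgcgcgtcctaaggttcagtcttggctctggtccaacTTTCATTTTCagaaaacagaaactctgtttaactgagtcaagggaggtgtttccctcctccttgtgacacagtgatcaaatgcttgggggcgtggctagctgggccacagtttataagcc
Ifit3: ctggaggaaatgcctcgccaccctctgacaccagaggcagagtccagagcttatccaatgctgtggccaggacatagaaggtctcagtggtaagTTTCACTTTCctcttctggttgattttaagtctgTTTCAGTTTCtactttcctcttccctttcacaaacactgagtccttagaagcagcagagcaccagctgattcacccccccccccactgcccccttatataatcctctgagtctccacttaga
Oas1a: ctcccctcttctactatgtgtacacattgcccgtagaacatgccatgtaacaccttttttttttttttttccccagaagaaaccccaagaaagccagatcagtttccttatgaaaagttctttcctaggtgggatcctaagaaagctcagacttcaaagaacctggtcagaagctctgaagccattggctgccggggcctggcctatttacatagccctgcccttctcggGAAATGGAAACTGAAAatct
The match is present in 9 of the 21 type I list members with a window in the table (42.9%) and in 11 of 16 of the interferon gamma list (68.8%), beside 275 of 10290 tested genes (2.67%) and 821 of all 27025 promoters (3.04%). A match is a description of letters, not evidence of a bound site.

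Negative values were found for 28 of 30 type I interferon response genes (median -0.64) and for all 21 tested interferon gamma response genes (median -0.59). No member of either had an unadjusted p under 0.05 (background 5.23% lower), and 0 lay below without overlap (background 7.67%). Bst2, or tetherin, which holds budding viruses at the cell surface, stood at 341, 219 and 168 CPM in the libraries labelled hairpin 1 and at 114, 51.4 and 257 CPM with hairpin 2 (log2 fold change -0.79, SE 0.56). Rsad2, or viperin, stood at 78.3, 59.8 and 28.7 CPM against 34.5, 73.8 and 58.5 CPM, a log2 fold change of 0.00 (SE 0.39). Ifit3, an interferon-induced antiviral protein, stood at 70.8, 31.9 and 11.4 CPM against 12.3, 5.79 and 45.9 CPM (-0.84, SE 0.89), and Oas1a, which senses double-stranded RNA, at 50.3, 34.1 and 20.1 CPM against 17.8, 5.72 and 39.2 CPM (-0.74, SE 0.66). Replicate 2 of hairpin 2 was the lowest of the 6 libraries for Bst2, Ifit3 and Oas1a, and the groups overlapped for all 4 genes.

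Within each group these genes ranged more widely than between groups. The summed level of the interferon gamma list was 2650, 1148 and 575 CPM in the libraries labelled hairpin 1 and 893, 163 and 1771 CPM with hairpin 2. Irgm1 and Igtp, GTPases that defend cells against vacuolar pathogens, stood at 435, 213 and 98.8 CPM against 155, 34.1 and 267 CPM, and at 365, 150 and 61.9 CPM against 83.3, 10.7 and 216 CPM. In each case replicate 1 labelled hairpin 1 was the highest and replicate 2 of hairpin 2 the lowest of the 6 libraries, the end pair named above. Without it the medians were 0.21 for the type I list and 0.61 for the interferon gamma list, the opposite sign. Without replicate 3 of hairpin 2 they were -1.36 and -1.40.

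Antigen presentation genes followed the same libraries. All 8 tested class II genes and 20 of 21 class I genes had negative values (medians -0.85 and -0.69), no unadjusted p under 0.05 and no gene without overlap. Cd74, the chaperone of class II molecules, stood at 443, 443 and 181 CPM against 121, 22.3 and 436 CPM (-0.88, SE 0.92). H2-D1, a class I heavy chain, stood at 1467, 1121 and 818 CPM against 679, 181 and 1205 CPM (-0.72, SE 0.59), and its partner B2m at 1381, 1094 and 750 CPM against 805, 217 and 1231 CPM (-0.52, SE 0.55). Replicate 3 of hairpin 2 stood among the highest libraries for these genes and replicate 2 of hairpin 2 the lowest. The endoplasmic reticulum members Calr (-0.11, SE 0.13) and Pdia3 (0.02, SE 0.11), which also serve general protein folding, varied less. Without the end pair the class I median was 0.12 and the class II median -0.06. In bulk tumours fewer cells of a type and less RNA per cell cannot be told apart.

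Chemokine and cytotoxic lymphocyte genes were low in counts and showed the same spread. Of 23 chemokine and receptor genes 20 were negative (median -0.59). Cxcl9, an interferon-induced attractant of T cells, stood at 80.6, 29.7 and 13.0 CPM against 26.9, 6.80 and 50.3 CPM (-0.55, SE 0.83), and Ccl2, an attractant of monocytes, at 26.2, 9.89 and 3.85 CPM against 3.08, 3.04 and 8.90 CPM (-1.41, SE 0.81). Of 15 cytotoxic genes 6 could be tested (median -0.96). The perforin gene Prf1 stood at 12.5, 6.79 and 1.89 CPM against 1.69, 0.418 and 6.52 CPM, and granzyme B (Gzmb) at 9.59, 6.39 and 0.821 CPM against 1.57, 0.119 and 4.57 CPM, the lowest under the level of 3 counts. All of these overlapped between the groups, and without the end pair the medians were 0.70 for chemokines and 0.06 for cytotoxic genes.

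Markers of host cells also varied widely among libraries of 1 group. Summed T cell markers (15 of 19 tested) were 78.9, 26.3 and 28.3 CPM in the libraries labelled hairpin 1 and 21.4, 22.8 and 53.7 CPM with hairpin 2. Macrophage markers (19 of 19 tested) summed to 2359, 2163 and 1789 CPM against 1375, 1072 and 2484 CPM. The macrophage list had a median of -0.15, and Apoe, a lipid carrier that melanoma cells can also make, stood at 1417, 1892 and 1454 CPM against 1100, 953 and 1491 CPM (-0.43, SE 0.18, edgeR unadjusted p = 0.0356). With the trend removed Apoe was at -0.17 (edgeR unadjusted p = 0.271). No T cell or macrophage marker separated the groups. Neutrophil markers summed to at most 30.1 CPM, with Ly6g at 0 in all 6 libraries, and 6 of 14 were tested (median 0.51). Their part in the interferon and antigen presentation values was not tested.

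Stromal and blood genes set other single libraries apart. Fibrillar matrix genes summed to 6384, 1156 and 2052 CPM in the libraries labelled hairpin 1 and to 1353, 1788 and 3612 CPM with hairpin 2, with Col1a1, a type I collagen chain, at 1602, 93.6 and 362 CPM against 124, 158 and 586 CPM (-1.25, SE 1.06). Replicate 1 labelled hairpin 1 was the highest, and the list's median was -0.20, or 0.97 without the end pair. Basement membrane genes had 11 of 12 positive values (median 0.26), led by the laminin chain gene Lamc1 at 204, 218 and 281 CPM against 269, 335 and 277 CPM (0.33, SE 0.14), and the groups overlapped in all 12. Their median was 0.07 without the end pair and 0.10 with the trend removed, and Lamc1 was then at 0.12 (edgeR unadjusted p = 0.253). Pericyte and smooth muscle genes had a median of 0.24, with Rgs5 at 39.9, 33.4 and 55.7 CPM against 57.7, 113 and 34.7 CPM, and a median of -0.02 without the end pair.

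The largest median of all lists, 2.69 over 10 erythroid genes, rested on 1 library. Hba-a1, an alpha globin gene, stood at 691, 463 and 504 CPM in the libraries labelled hairpin 1 and at 174, 9503 and 216 CPM with hairpin 2. Hbb-bs, a beta globin gene, stood at 621, 457 and 457 CPM against 209, 9215 and 246 CPM. Replicate 2 of hairpin 2 was the highest of the 6 and the other hairpin 2 libraries the lowest for both, and 0 of the 10 genes separated the groups. Without that library the median was -1.18.

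**Figure D4:**
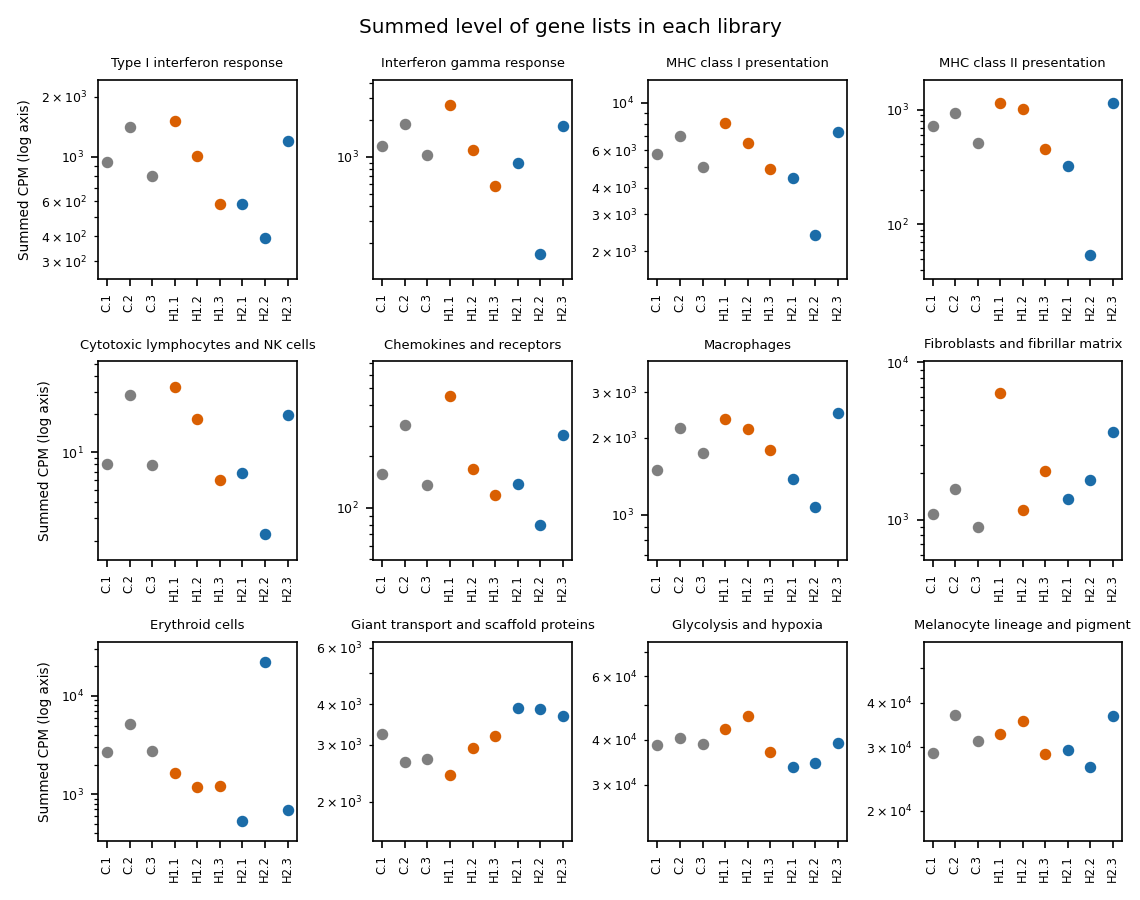
Summed CPM of the members of 12 lists in each library on log axes, for control (C, grey), the libraries labelled hairpin 1 (H1, orange) and hairpin 2 (H2, blue), replicates 1 to 3. Replicate 2 of hairpin 2 is lowest for the interferon and MHC lists and highest for erythroid genes (22120 CPM), while for the giant proteins all blue points (3674 to 3904 CPM) lie above all orange points.

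TGF beta signalling, endoplasmic reticulum stress and p53 target genes showed no common direction. TGF beta signalling genes had 11 of 18 positive values (median 0.05), with Tgfbr1 and its mediator Smad2, at 27.5, 27.5 and 26.1 CPM against 29.1, 34.7 and 34.0 CPM (0.27, SE 0.12), above without overlap. With the trend removed Smad2 turned to -0.05 (edgeR unadjusted p = 0.734) and Tgfbr1 stood at 0.28 (unadjusted p = 0.0125). Among endoplasmic reticulum stress genes (median 0.03) the regulators Crebrf, at 25.6, 34.6 and 24.1 CPM against 44.2, 48.96 and 34.9 CPM (0.60, SE 0.17), Creb3l2 (0.36, SE 0.14) and the stress sensor gene Atf6 (0.30, SE 0.12) lay above without overlap, while the chaperone genes Hspa5 (0.03, SE 0.13) and Hsp90b1 (0.04, SE 0.12) overlapped. Of the 20 stress genes tested, 3 lay above (background 8.31%) and 1 below (background 7.67%) without overlap. The 3 regulators have transcripts of 7082 to 7462 bases, and with the trend removed they were at 0.25 (Crebrf, edgeR unadjusted p = 0.0961), 0.12 (Creb3l2, unadjusted p = 0.247) and 0.01 (Atf6, unadjusted p = 0.902). Targets of p53 had a median of 0.10, with Trp53inp1 on the higher side and Cdkn1a, the p21 cell cycle inhibitor, at 213, 131 and 162 CPM against 150, 84.3 and 105 CPM (-0.57, SE 0.26) with overlap. Immediate early genes leaned to lower values as counted, with 15 of 18 negative (median -0.35). Of these genes 2 had an unadjusted p under 0.05 on the lower side (background 5.23%), and 1 lay below without overlap (background 7.67%). Their median was 0.19 without the end pair.

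**Figure D5:**
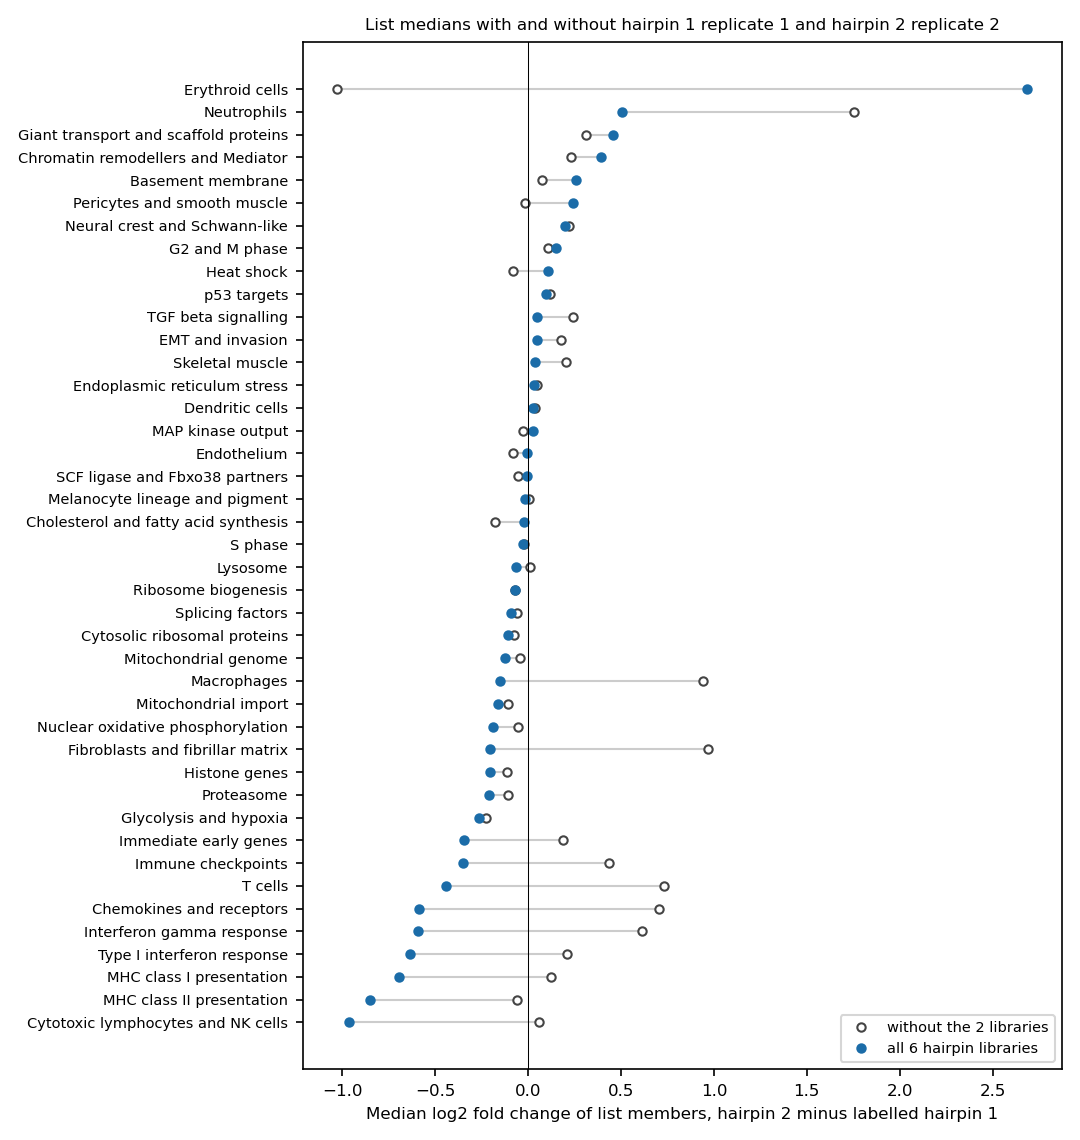
Median log2 fold change of hairpin 2 over the libraries labelled hairpin 1 for each list of 5 or more tested genes, from all 6 hairpin libraries (filled) and without the end pair (open). The giant protein, chromatin and glycolysis lists keep their side, while the interferon, chemokine, macrophage and matrix lists cross 0 (for interferon gamma from -0.59 to 0.61).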

How the data were processed

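RNA was extracted with TRIzol and sequenced by NovaSeq, as the labels' protocols state. The authors deposited whole-number counts per gene symbol, 1 column per library. Tools listed by the submitters' processing notes are Cufflinks and STAR 2.7.0d, and the builds listed, GRCh38 and hg38, are human although the symbols are mouse. Counter, annotation and strand setting: not given in the sources used here, so overlapping genes (46 of the 141 named genes) and close paralogs (globin, MHC, ribosomal protein genes) cannot be told apart. The files list 54532 entries, and 102 symbols on several entries were kept separate. Groups came from titles. Library totals of 15322163 to 17342554 counts set the precision. Replicates of 1 group gave a chi-square of 19.9 to 71.3 times its degrees of freedom, so none was treated as a repeat deposit.

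The test was the robust quasi-likelihood fit of edgeR 4.0.16 (R 4.3.3) on all 9 libraries (TMM scaling, filterByExpr with groups, minimum count 10 and total 15, Benjamini-Hochberg adjusted p under 0.05), and CPM uses TMM-scaled totals. Lists of genes are described by counts and medians without a set test. The 46 lists and the rule for named genes were chosen with earlier results of these data known. The rule takes Fbxo38, up to 12 genes per direction by smallest p where fewer pass (clone and predicted-gene names excluded), 4 members by CPM and the 1 of smallest p from the 6 highest and 6 lowest lists by median, and 1 or 2 members by CPM of the other lists. Members named beyond it were chosen after their values were seen. Length and GC content are from GENCODE M21 (99.4% of tested genes), coordinates are GRCm38, and promoters are RefSeq. The trend was removed as a lowess offset (span 0.3) per library. Alternatives were other scalings and filters, DESeq2 1.42.0, limma-voom (limma 3.58.1), a fit of 6 libraries, a replicate block, trend removal, and leaving out libraries; 1 combination was added after seeing the data. The steps were tested on counts simulated with 200 of 14193 genes changed in hairpin 2. The edgeR test called 51% of the 2-fold and 71% of the 4-fold changes, and 4.69% of its calls were false. A count of 0 genes past the threshold can therefore miss changes of that size.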

Additional observations from a re-analysis of the deposited data

How the results depend on the processing

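Genes past the threshold numbered 0 in edgeR, 89 with DESeq2, 2 with no filter on low counts, 0 with the other scalings, limma-voom, the stricter filter and the replicate block, and 0 to 1 on leaving out each library in turn (1 without replicate 1 of hairpin 2). Genes at an unadjusted p under 0.05 numbered 1655, and 1141 with the replicate block, 879 with the length and GC trend removed, 603 with both, 537 without the end pair, 307 when the trend was removed as well (chosen after seeing the data), and 738 to 2432 on leaving out each library. Deviations of same-numbered samples had correlations of -0.15, 0.14 and -0.34. Best partners had other numbers (replicate 1 labelled hairpin 1 with replicate 3 of hairpin 2, 0.45). With 3 libraries per group these values cannot settle whether the numbers pair the samples. Fbxo38 kept its direction in all runs, from -1.16 to -0.54 on leaving out each library. Its groups did not overlap, so leaving out libraries could hardly turn that direction. With the trend removed the median was 0.13 for the chromatin list (0.13 with the block, 0.058 in the added run), 0.0297 for Giant transport and scaffold proteins (0.0241 and 0.0632) and 0.0635 for Cytosolic ribosomal proteins (0.0635 and 0.0322). Without the end pair, and then in the added run, medians were 0.21 and 0.20 for type I interferon, 0.61 and 0.60 for interferon gamma, 0.12 and 0.14 for MHC class I, 0.0558 and 0.0946 for Cytotoxic lymphocytes and NK cells, 1.76 and 1.80 for neutrophils, -0.0153 and -0.0307 for Pericytes and smooth muscle, -1.03 and -0.97 for erythroid cells, 0.70 and 0.68 for chemokines, 0.73 and 0.82 for T cells, 0.44 and 0.44 for checkpoints, 0.94 and 0.95 for macrophages, 0.97 and 0.89 for matrix, 0.19 and 0.34 for immediate early genes, and -0.08 and -0.10 for heat shock, with 0.0834 for MHC class II and 0.017 for oxidative phosphorylation in the added run. Leaving out each library gave medians of -1.40 to 0.10 for interferon gamma, -1.36 to -0.06 for type I interferon, -1.40 to -0.25 and -2.13 to -0.33 for MHC class I and II, -1.39 to 0.32 for chemokines, -0.42 to 1.63 for neutrophils, -0.0193 to 0.52 for pericytes, -1.18 to 3.25 for erythroid cells, -2.52 to -0.37 for cytotoxic cells, -1.76 to 0.37 for T cells, -0.86 to 0.09 for checkpoints, -1.44 to 0.51 for macrophages, -1.07 to 0.75 for matrix, -0.60 to 0.16 for immediate early genes, -0.43 to 0.24 for the mitochondrial genome, -0.02 to 0.20 for heat shock and -0.15 to 0.24 for neural crest genes. The cause was not tested. Of 140 named genes beside Fbxo38, 134 to 140 kept their direction under the other scalings and tools, 119 with the trend removed, 90 without the end pair and 79 in the added run. The number of libraries, 3 per group, limits the precision of every value, and 3 counts equal 0.178 to 0.202 CPM.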

Other observations

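A pair of microRNA-annotated entries, Gm23935 (GRCm38 chr16:11144125-11144181, plus strand) and Gm24270 (chr9:56223715-56223771, minus strand), had the smallest p among lower genes when predicted-gene names were kept, and they were the 2 that passed with no filter on low counts (edgeR adjusted p = 0.0236 each). DESeq2 also called Gm23935 on all libraries (adjusted p = 0.00107). Gm23935 stood at 615, 498 and 367 CPM in the libraries labelled hairpin 1, at 273, 227 and 280 CPM with hairpin 2 and at 355, 364 and 359 CPM in control (log2 fold change -0.93, SE 0.17). Gm24270 stood at 34.7, 29.4 and 27.3 CPM against 15.6, 13.1 and 14.1 CPM (-1.10, SE 0.20). Both entries are 57 bases long, and whether reads of other transcripts were counted there was not tested.

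Cdk2ap1, an inhibitor of a cyclin-dependent kinase, was past the threshold without replicate 1 of hairpin 2 (log2 fold change -1.22, SE 0.12, edgeR adjusted p = 0.0382), and DESeq2 called it on all libraries (-0.83, adjusted p = 0.0392). It stood at 237, 228 and 234 CPM in the libraries labelled hairpin 1, at 193, 93.9 and 107 CPM with hairpin 2 and at 248, 226 and 268 CPM in control. Replicate 1 of hairpin 2, the library left out in that edgeR fit, stood nearest to the control libraries and those labelled hairpin 1. These 3 genes were chosen after their values were seen.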
